A study of Mus musculus with 6 samples.

Results

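Transcripts of the MYC network were followed in thyroid tumor cells of mice of 2 genotypes, YAP and BrafYAP, sorted for the fluorescent protein Kate. Its members were taken by name. They were the 10 genes Myc, Mycn, Mycl, Max, Mxd1, Mxd3, Mxd4, Mxi1, Mnt and Mlx, and all 10 were found among the 35027 genes of the expression table. YAP mice expressed YAPS127A, a constitutively nuclear form of the transcriptional coactivator YAP, in thyroid follicular cells from a transgene switched on by doxycycline (dox). BrafYAP mice carried the same transgene and also expressed BrafV600E, an activated kinase of the MAPK pathway, from the endogenous gene. In both, Cre recombinase under a thyroid-specific promoter activated a dox-controlled transactivator linked to the red fluorescent protein Kate, by which the cells were sorted, and dox chow was given from 4 weeks of age by the labels and the study's methods, whereas its results text has a later start. The age at sacrifice was not given in the labels. There were 3 libraries per genotype, from about 20000 sorted cells each, numbered 1, 2 and 3 for YAP and 1, 2 and 6 for BrafYAP. By the labels, a YAP library was a pool of 3 tumors and a BrafYAP library was 1 tumor, and by these labels pooling and genotype cannot be told apart. The methods of the study instead describe a replicate as a single tumor of its own mouse and mention no pooling, and which of these holds could not be settled from the data. The comparison asks what mutant Braf adds to the transcripts of this network in tumors driven by YAP.

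MYC proteins (c-MYC, N-MYC and L-MYC, encoded by Myc, Mycn and Mycl) bind DNA only as partners of MAX and activate genes of growth, ribosome production and metabolism. The MXD proteins (encoded by Mxd1, Mxi1, Mxd3 and Mxd4) and MNT compete for MAX and for the same DNA sequence, the E-box, and bring the SIN3 corepressors. MLX is a relative of MAX that pairs with some MXD proteins, with MNT and with the glucose-sensing factors MondoA and ChREBP. MYC is a textbook effector of growth factor and MAPK signaling, and its transcript is an early response to both mitogens and cell handling, whereas Mxd1 is known to rise as cells stop dividing and differentiate.

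Levels are given in scaled reads, the reads behind a gene's deposited value brought to one scale for all libraries, and differences as log2 fold changes of BrafYAP against YAP from limma on log2(scaled reads + 1). The libraries held 26.2 to 36.9 M estimated reads, and each of the 10 members was detected in all 6. BrafYAP replicate 6 stood apart, with a Pearson's r across genes of 0.732 to 0.837 with the other libraries, which had 0.833 to 0.968 among themselves. The median log2 fold change of all 16832 genes tested was -0.12, and 0.01 after median-ratio scaling, a shift that left the sign of every member as it was. The sorted cells held thyroid transcripts, with Pax8 at 5189 to 14663 scaled reads in all libraries, whereas Tshr had 0 reads in BrafYAP replicates 1 and 2. The macrophage transcript Lyz2 was high in every library, at 44655 to 595619 scaled reads. Transcripts of these bulk samples are not assigned to a cell type, so fewer cells of a type and less RNA per cell cannot be told apart.

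Across the network, Max, Mxd3 and Mlx lay lower and Mxd1 lay higher in all 3 BrafYAP libraries than in any YAP library, and the ranges of the 3 MYC genes overlapped. None of the 10 members passed a limma adjusted p of 0.05, a threshold that 0% of the 16832 genes tested passed, although 3404 of them had an unadjusted p under 0.05. At an unadjusted limma p under 0.05, 1 member (Mxd1) was higher, against 9.68% of all genes, and 1 (Max) was lower, against 10.5%. The groups did not overlap for 1 member with every BrafYAP library higher, against 11.7% of all genes, and for 3 members with every BrafYAP library lower, against 17.1%. In either direction the groups did not overlap for 4 of 10 members, against 28.7% of all genes. With 10 members, 1 gene is a share close to the first 3 of these backgrounds. The 3 lower members are too few to be told apart from the last, so none of these counts is read as a result about the members. The median log2 fold change of the 10 was 0.18. Leaving out YAP replicate 1 made it -0.07, and leaving out BrafYAP replicate 6 made it 0.47. When limma weighted the libraries by weights estimated from the data, which were lowest for BrafYAP replicate 6 (0.221) and highest for YAP replicate 3 (4.81), 4655 genes passed the adjusted threshold, with Max, Mxd1 and Mycn among them.

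**Figure D1:**
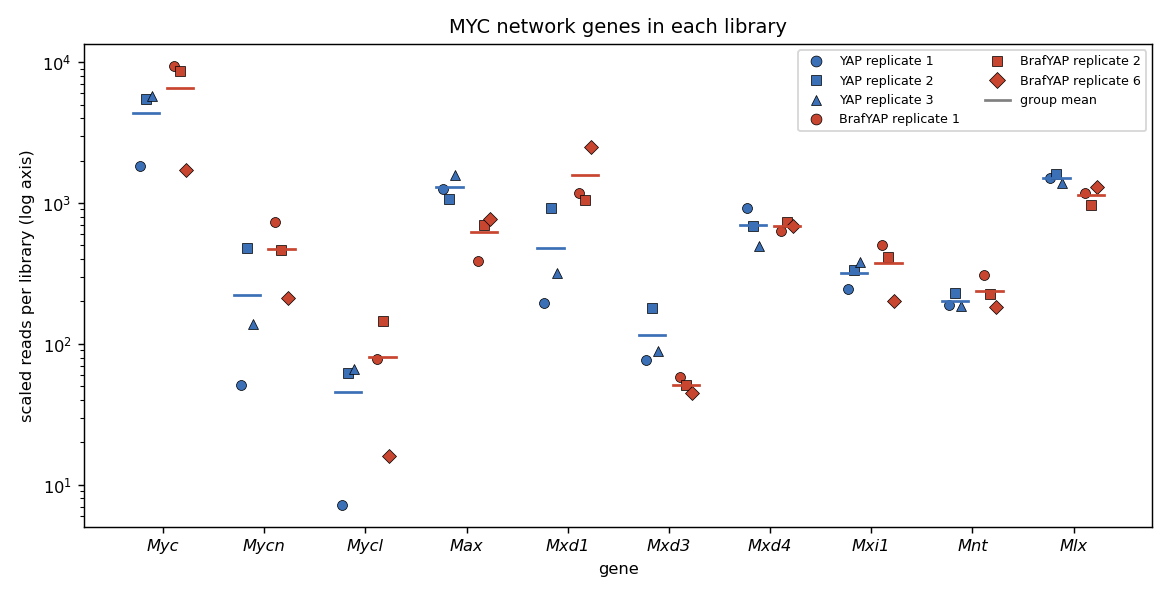
Scaled reads (log axis) of the 10 MYC network genes in each of the 3 YAP and 3 BrafYAP libraries, 1 symbol per library, with the group mean as a line. Max, Mxd3 and Mlx lie lower and Mxd1 lies higher in all BrafYAP libraries, and Myc, Mycn and Mycl are lowest in YAP replicate 1 and BrafYAP replicate 6 within each genotype.

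The activator gene Myc (chromosome 15, 61985391 to 61990374, plus strand, mm10) had 1840.2, 5433 and 5715 scaled reads in YAP replicates 1, 2 and 3 and 9403, 8622 and 1711 in BrafYAP replicates 1, 2 and 6. BrafYAP replicates 1 and 2 lay above all YAP libraries and BrafYAP replicate 6 lay below all of them, so the groups overlapped. Group means were 4329 ± 2160.2 (SD, n = 3) for YAP and 6579 ± 4233 (SD, n = 3) for BrafYAP, and the log2 fold change was 0.43 (SE 0.75, 95% interval -1.34 to 2.19, limma adjusted p = 0.772). The sign rested on single libraries: the difference was 1.22 without BrafYAP replicate 6 (SE 0.53), -0.11 without YAP replicate 1, -0.00386 without BrafYAP replicate 1 and 0.06 without BrafYAP replicate 2, with limma adjusted p-values of 0.249 to 0.999 over the 6 fits that each left out a library.

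Mycn (chromosome 12, 12936093 to 12941914, minus strand), which encodes the MYC protein best known from neural and embryonic tissue, had 51.4, 476 and 138 scaled reads in the YAP libraries and 730.1, 467 and 212 in BrafYAP replicates 1, 2 and 6. Only YAP replicate 2 reached the BrafYAP range. The log2 fold change was 1.46 (SE 0.83, 95% interval -0.49 to 3.42, limma adjusted p = 0.362). It was 2.29 when YAP replicate 2 was left out and 0.70 when YAP replicate 1 was, and the limma adjusted p-values of the 6 such fits ranged from 0.125 to 0.712. Mycl (chromosome 4, 122995652 to 123002485, plus strand), encoding L-MYC, was the lowest of the 3, at 7.20, 62.4 and 65.9 scaled reads in YAP and 78.7, 146 and 16.0 in BrafYAP replicates 1, 2 and 6. Its log2 fold change was 0.84 (SE 1.09, 95% interval -1.72 to 3.40, limma adjusted p = 0.686). This became -0.16 when YAP replicate 1 was left out and 1.73 when BrafYAP replicate 6 was.

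The 3 MYC genes shared their lowest library within each genotype. Each was lowest in YAP replicate 1 among the YAP libraries and lowest in BrafYAP replicate 6 among the BrafYAP libraries. These 2 libraries also had the highest scores on the second principal component of all genes, 78.0 and 81.5, a component that held 28.5% of the variance. On the first component, which held 48.2%, they lay at opposite ends, at -107 and 170. Their Pearson's r across genes, 0.732, was the lowest of any pair of libraries, so they were not alike in general. The summed level of 4 epithelial markers (Epcam, Cdh1, Krt8 and Krt18) was lowest in the same libraries, at 88329 scaled reads in YAP replicate 1 (up to 306503 in YAP) and 144130 in BrafYAP replicate 6 (up to 322350 in BrafYAP). Krt8 and Krt18, which made up most of the sum, were each lowest in these libraries within the genotype, whereas Epcam was highest of all libraries in BrafYAP replicate 6 (7013 scaled reads) and lowest of YAP in replicate 2, and Cdh1 was lowest of BrafYAP in replicate 2. None of the 4 markers was at 0 in any library, and their part in the MYC values was not tested. Among 13811 other protein-coding genes tested, the 5 whose centred log2 profiles over the 6 libraries were closest to that of Myc included Btbd19, Ankrd34a, Sap30l and Rusc2, with root mean square differences of 0.16 to 0.24 log2 units. Btbd19, the closest, had 106, 396 and 289 scaled reads in the YAP libraries and 536, 497 and 98.6 in BrafYAP replicates 1, 2 and 6. Rusc2 had 380.4, 1639 and 1185 in YAP and 2140.4, 2685 and 434 in BrafYAP.

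Max, encoding the shared partner of MYC, MXD and MNT proteins, lies on chromosome 12 (76937269 to 76962201, minus strand). It had 1266, 1075 and 1571 scaled reads in YAP replicates 1, 2 and 3 and 388, 695 and 772 in BrafYAP replicates 1, 2 and 6. All BrafYAP libraries lay below all YAP libraries. Group means were 1304 ± 250 (SD, n = 3) and 618 ± 203 (SD, n = 3), and the log2 fold change was -1.12 (SE 0.36, 95% interval -1.96 to -0.28), with an unadjusted limma p of 0.0157 that did not pass adjustment (limma adjusted p = 0.158). Its sign could not change when a library was left out, because the groups did not overlap. The difference was -1.31 without BrafYAP replicate 6 and -0.81 without BrafYAP replicate 1. Limma adjusted p-values were 0.129 to 0.386 over the fits that left out a library. The gene model Gm47218 overlaps Max on the same strand and can share its reads, as Gm44292 can for Mxd1.

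Mlx (chromosome 11, 101087277 to 101092207, plus strand), the alternative partner, had 1495, 1619 and 1387 scaled reads in YAP and 1177, 963 and 1297 in BrafYAP replicates 1, 2 and 6. It was lower in every BrafYAP library, by a narrow margin between YAP replicate 3 and BrafYAP replicate 6. The log2 fold change was -0.40 (SE 0.26, 95% interval -1.01 to 0.22, limma adjusted p = 0.425), and -0.27 with median-ratio scaling. Mlx overlaps Psmc3ip on the other strand, and its estimated reads were not whole numbers. Of the other proteins that pair with MAX or MLX, Mga (encoding a large repressor that pairs with MAX) had 407.7 to 723 scaled reads in BrafYAP against 697 to 963 in YAP, and its log2 fold change was -0.61 (SE 0.32, limma adjusted p = 0.332). Mlxip, encoding MondoA, had 407.4 to 589.6 in BrafYAP and 471 to 896 in YAP, and its log2 fold change was -0.52 (SE 0.35, limma adjusted p = 0.428). Both overlapped between genotypes. Mlxipl, encoding ChREBP, had 16, 8 and 14 estimated reads in YAP and 0, 7 and 3 in BrafYAP replicates 1, 2 and 6, below the minimum mean of 10 scaled reads, and was not tested.

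The E-box that all these dimers read is CACGTG, which reads the same on both strands, and it also occurs in promoters of the network's own genes. Promoter windows of 300 bases (250 before to 50 after the start, RefSeq, GRCm38.p6) were found for 9 members, all but Myc, and 4 of their 11 windows, 1 each of 4 members, held the motif. Of all 32851 windows of this length 7.15% held it. Of the 4 members with a match, Max and Mlx were lower in every BrafYAP library, whereas Mnt (log2 fold change 0.22) and Mxd4 (0.01) overlapped. Mxd3 and Mxd1, whose groups also did not overlap, had no match. A link between the motif and the values was not tested. Capitals mark the E-box, and each run is 46 bases on the gene's strand.
Max (chr12:76962246-76962291, minus strand, E-box starting at base -3): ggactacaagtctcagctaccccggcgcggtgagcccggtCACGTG
Mlx (chr11:101087230-101087275, plus strand, E-box starting at base -40): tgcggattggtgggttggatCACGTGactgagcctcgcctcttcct
Mnt (chr11:74830781-74830826, plus strand, E-box starting at base -123): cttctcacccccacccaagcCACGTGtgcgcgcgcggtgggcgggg
Mxd4 (chr5:34187904-34187949, minus strand, E-box starting at base -219): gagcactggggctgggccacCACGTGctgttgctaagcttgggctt
The windows of Mycn, Mycl, Mxd1, Mxd3 and Mxi1 (3 windows for Mxi1) did not hold these letters. A match describes the sequence and is not a measured binding site.

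Among the MXD genes, values of Mxd1 lay higher and those of Mxd3 lower in BrafYAP. Mxd1 (chromosome 6, 86647042 to 86669161, minus strand) had 194, 917 and 319 scaled reads in YAP replicates 1, 2 and 3 and 1178, 1057 and 2490.0 in BrafYAP replicates 1, 2 and 6. The BrafYAP libraries all lay above the YAP libraries, with YAP replicate 2 close to the BrafYAP range. Group means were 477 ± 386 (SD, n = 3) and 1575 ± 795 (SD, n = 3), and the log2 fold change was 1.92 (SE 0.62, 95% interval 0.46 to 3.37), with an unadjusted limma p of 0.0167 and a limma adjusted p of 0.161. Without YAP replicate 2 the difference was 2.54 and without YAP replicate 1 it was 1.43, with limma adjusted p-values of 0.0650 to 0.370 over the 6 such fits. It was 1.53 without BrafYAP replicate 6, where Mxd1 was highest.

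Transcripts that cell dissociation is known to induce, immediate-early genes among them, were described beside it. Of 12 such genes 7 were higher in BrafYAP at an unadjusted limma p under 0.05, against 9.68% of all genes tested, and 0 were lower, against 10.5%. Their median log2 fold change was 1.79. Their summed level was 156042 to 339679 scaled reads in YAP and 447538 to 672797 in BrafYAP, and none was at 0 in any library. The highest log2 fold changes of the list were those of the heat shock genes Hspa1a (3.32, SE 1.07) and Hspa1b (3.25, SE 0.98), and the lowest those of Fosb (-0.57, SE 0.34) and Ier3 (0.23, SE 0.83). Only BrafYAP mice expressed BrafV600E, so dissociation and MAPK signaling cannot be told apart in this list. The part of dissociation in the Mxd1 values was not tested. Immune cells are also known to express Mxd1 and Myc: 7 markers were tested and 6 were lower in BrafYAP at an unadjusted limma p under 0.05, against 10.5% of all genes tested. Summed levels were 279217 to 923215 scaled reads in YAP and 123878 to 248501 in BrafYAP. None of the 7 was at 0 in any library. The part of immune cells in any member's values was not tested.

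Mxd3 (chromosome 13, 55325168 to 55329823, minus strand), the MXD gene known to be expressed in dividing cells, was low throughout, at 76.4, 179 and 89.3 scaled reads in YAP and 57.8, 50.8 and 44.6 in BrafYAP replicates 1, 2 and 6. All BrafYAP libraries lay below all YAP libraries. The log2 fold change was -1.06 (SE 0.46, 95% interval -2.14 to 0.01, limma adjusted p = 0.251), and it was -0.69 without YAP replicate 2, the highest library, and -1.30 without YAP replicate 1. Mxd3 overlaps Prelid1 on the other strand, and its estimated reads were not whole numbers. Of 10 proliferation genes 7 were lower in BrafYAP at an unadjusted limma p under 0.05, against 10.5% of all genes tested, and 0 were higher, against 9.68%. Their median log2 fold change was -1.55, between -1.40 and -1.77 in the fits that left out a library. The part of proliferation in the Mxd3 values was not tested. Ccnb1, a mitotic cyclin, had a difference of -2.54 (SE 0.50, limma adjusted p = 0.0889) and Bub1, a spindle checkpoint kinase, one of -2.57 (SE 0.66, limma adjusted p = 0.114), whereas the smallest differences were those of Pcna (-0.33, SE 0.28) and Mcm2 (-0.57, SE 0.35), both DNA replication factors.

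The remaining repressors differed little relative to their spread. Mxd4, which antisense Gm42846 overlaps (chromosome 5, 34173883 to 34187720, minus strand), had 924, 692 and 493 scaled reads in YAP and 637, 728 and 691 in BrafYAP replicates 1, 2 and 6. All 3 BrafYAP libraries lay inside the YAP range, with a log2 fold change of 0.01 (SE 0.32, 95% interval -0.74 to 0.76, limma adjusted p = 0.992). Mxi1 (chromosome 19, 53310518 to 53375810, plus strand), which Gm10197 overlaps on the other strand, had 245, 333 and 383 scaled reads in YAP and 503, 417 and 202 in BrafYAP replicates 1, 2 and 6. It was lowest in BrafYAP replicate 6 of all libraries, and its log2 fold change was 0.15 (SE 0.43, 95% interval -0.85 to 1.15, limma adjusted p = 0.866), or 0.54 without that library. Mnt (chromosome 11, 74830920 to 74845725, plus strand), the repressor that most cell types express, had 189, 229 and 186 scaled reads in YAP and 308, 225 and 183 in BrafYAP. Its groups overlapped, and BrafYAP replicate 1 alone was above the YAP range (log2 fold change 0.22, SE 0.34, 95% interval -0.57 to 1.01, limma adjusted p = 0.740). These intervals are wide and do not show that the genotypes are alike.

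**Figure D2:**
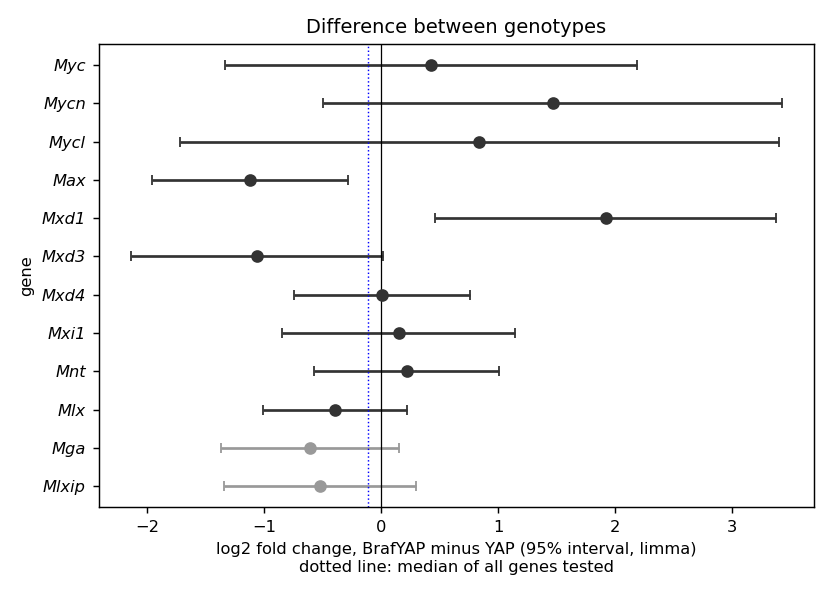
Log2 fold changes of BrafYAP against YAP from limma (points) with 95% intervals (bars) for the 10 members (dark) and for Mga and Mlxip (grey), with the median of all genes tested, -0.12, as a dotted line. The intervals of Max and Mxd1 exclude 0, and those of Mycn and Mycl span over 3 log2 units.

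Leaving out BrafYAP replicate 6, a choice made after it was seen to stand apart, changed which members separated the genotypes. The 2 remaining BrafYAP libraries then lay above all YAP libraries for Myc, Mycl, Mxd1 and Mxi1, 4 of 10 members against 19% of all genes tested, and below them for Max, Mxd3 and Mlx, 3 of 10 against 24.5%. Leaving out any other library gave 4 or 5 members that did not overlap, against 34.9 to 46.7% of all genes, and the fifth was Mycn without YAP replicate 2. Max, Mxd1, Mxd3 and Mlx, whose groups did not overlap over all libraries, stayed apart in all 6 cases. Leaving out a library cannot create an overlap, so this holds by construction, and such counts can only stay or rise. BrafYAP replicate 6 also had the most Tshr, the thyrotropin receptor (492 scaled reads, at most 144 in YAP), which was at 0 in the other BrafYAP libraries.

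Levels of different members were compared per exonic length, as TPM recomputed with GENCODE M21 exons. Myc was the most abundant member in 4 libraries, at 166 to 308 TPM, and Mlx exceeded it in YAP replicate 1 (64.3 against 58.2 TPM) and BrafYAP replicate 6 (57.5 against 55.8 TPM). Myc made up 90.2 to 97.5% of the summed level of the 3 MYC genes in every library. Max was at 24.9 to 39.6 TPM in YAP and 9.61 to 19.0 TPM in BrafYAP. The 5 repressor genes (Mxd1, Mxd3, Mxd4, Mxi1 and Mnt) summed to 21.1 to 32.05 TPM in YAP and 33.4 to 46.2 TPM in BrafYAP. Neither overlapped, and on scaled reads 28.7% of all genes tested did not overlap either. Of the 5 repressors only Mxd1 was higher in every BrafYAP library than in any YAP library. Mxd1 was 11.2 to 33.7% of the repressor sum in YAP and 40.8 to 67.5% in BrafYAP, where it was the largest of the 5 in each library. The repressor sum was 0.544 to 1.29 times the level of Max in YAP and 1.90 to 3.77 times in BrafYAP. This ratio is made from Max and from a sum in which only Mxd1 was higher throughout, so it is not a further result.

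The level of Myc relative to the repressor sum did not separate the genotypes. It was 2.76, 5.19 and 8.86 in YAP replicates 1, 2 and 3 and 8.52, 8.66 and 1.21 in BrafYAP replicates 1, 2 and 6, so that BrafYAP replicate 6 had the lowest ratio of all libraries. The 3 MYC genes together were 1.98 to 7.23 times the level of Max in YAP, and 34.3, 17.3 and 3.26 times in BrafYAP replicates 1, 2 and 6. BrafYAP replicates 1 and 2 lay above all YAP libraries in this ratio and BrafYAP replicate 6 lay within their range. These ratios describe transcripts and were not tested.

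**Figure D3:**
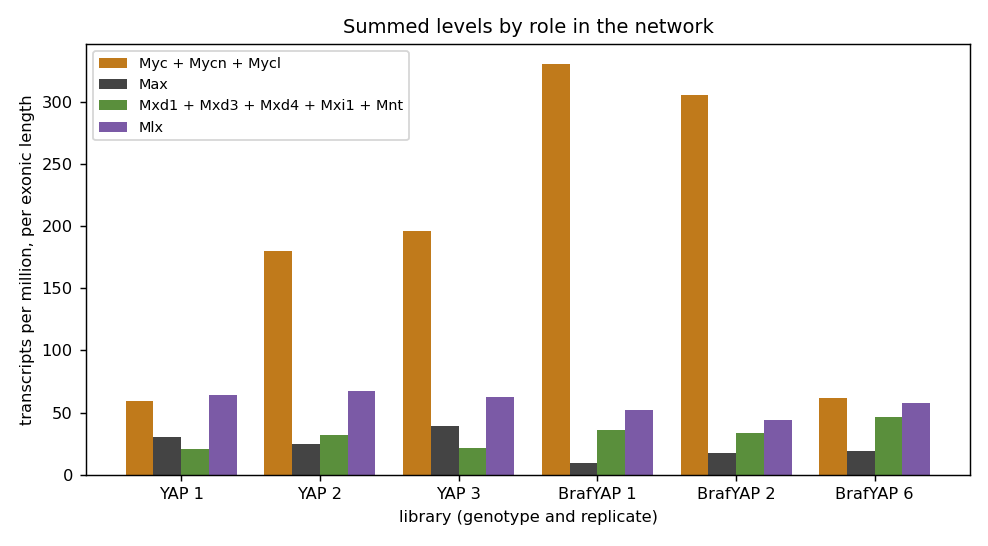
TPM per exonic length, summed by role, in each of the 6 libraries (1 bar per role and library, no replicates within a bar). The MYC genes reach 330.0 and 306 in BrafYAP replicates 1 and 2 but 61.9 in BrafYAP replicate 6. The repressor bar is taller than the Max bar in every BrafYAP library and also in YAP replicate 2.

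The genes that MYC is known to act on were then described by list. Of all genes tested, 9.68% were higher and 10.5% lower at an unadjusted limma p under 0.05. In the ribosome biogenesis list 0 of 16 genes were higher and 0 lower at an unadjusted limma p under 0.05, 6 of 16 were above 0, and the median log2 fold change was -0.24, against -0.12 for all genes tested. The widest differences were those of Ppan (0.60, SE 0.72) and Bop1 (0.57, SE 0.57), both factors of large ribosomal subunit assembly, and of Nop56 (-0.79, SE 0.40) and Nolc1 (-0.76, SE 0.33), both nucleolar proteins, at limma adjusted p-values of 0.253 to 0.660. Of 13 metabolic and translation genes 1 was higher and 2 were lower at an unadjusted limma p under 0.05, with a median of -0.42. Srm, spermidine synthase, had 85.3, 231 and 195 scaled reads in YAP and 364, 531 and 381 in BrafYAP replicates 1, 2 and 6, without overlap (log2 fold change 1.41, SE 0.45, limma adjusted p = 0.157). Tfrc, the transferrin receptor, differed by -0.94 (SE 0.37, limma adjusted p = 0.223) and Eif4a1, a translation initiation helicase, by -0.75 (SE 0.25, limma adjusted p = 0.168), whereas Cad, the enzyme that starts pyrimidine synthesis, differed by 0.40 (SE 0.42).

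Of the 5 genes that MYC is known to repress, 3 were higher at an unadjusted limma p under 0.05 and 0 were lower, against 9.68 and 10.5% of all genes tested. All 5 were above 0, with a median of 1.83. Cdkn2b, which encodes an inhibitor of CDK4 and CDK6, had 225, 4827 and 964 scaled reads in YAP and 9436, 15170 and 2717 in BrafYAP replicates 1, 2 and 6, with overlap (log2 fold change 2.84, SE 1.12, limma adjusted p = 0.220). Gadd45a, a stress and DNA damage response gene, had 99.4, 821 and 421 in YAP and 1800.4, 2487 and 2725 in BrafYAP, without overlap (log2 fold change 2.82, SE 0.72, limma adjusted p = 0.114). Cdkn1a, the cell cycle inhibitor p21, differed by 0.14 (SE 0.39) and Ndrg1, a stress-responsive gene, by 0.43 (SE 0.35). In BrafYAP replicate 6, where Myc was lowest, Gadd45a was highest and Cdkn2b was lowest of the BrafYAP libraries.

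Of 14 cofactors and turnover factors of MYC, 0 were higher and 3 were lower at an unadjusted limma p under 0.05, against 9.68 and 10.5% of all genes tested. Their median was -0.34, or -0.11 without BrafYAP replicate 6. The lowest were Aurka (-2.21, SE 0.58, limma adjusted p = 0.117), a mitotic kinase that also stabilises N-MYC, and Skp2 (-1.19, SE 0.47, limma adjusted p = 0.220), a ubiquitin ligase subunit of the cell cycle. The highest were Bin1 (1.39, SE 0.76), a MYC-interacting adaptor, and Wdr5 (0.81, SE 0.54), a chromatin cofactor. Of 6 corepressor genes of MXD and MNT 1 was higher and 1 lower at an unadjusted limma p under 0.05, and the median, -0.13, ranged from -0.29 to 0.14 as each library was left out: Hdac2, a histone deacetylase, differed by 1.11 (SE 0.37, limma adjusted p = 0.166) and Ncor1, a nuclear corepressor, by -0.69 (SE 0.27, limma adjusted p = 0.217). Of the scaffolds that MXD proteins bind, Sin3b differed by 0.35 (SE 0.39), less than its error, and Sin3a by -0.42 (SE 0.29), with every BrafYAP library (579 to 799.9 scaled reads) below every YAP library (807 to 1107). Of the MondoA and ChREBP targets, Arrdc4 differed by 1.93 (SE 0.73, limma adjusted p = 0.206) and Txnip, an inhibitor of glucose uptake, by 0.06 (SE 0.55), and Pklr was below the minimum.

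**Figure D4:**
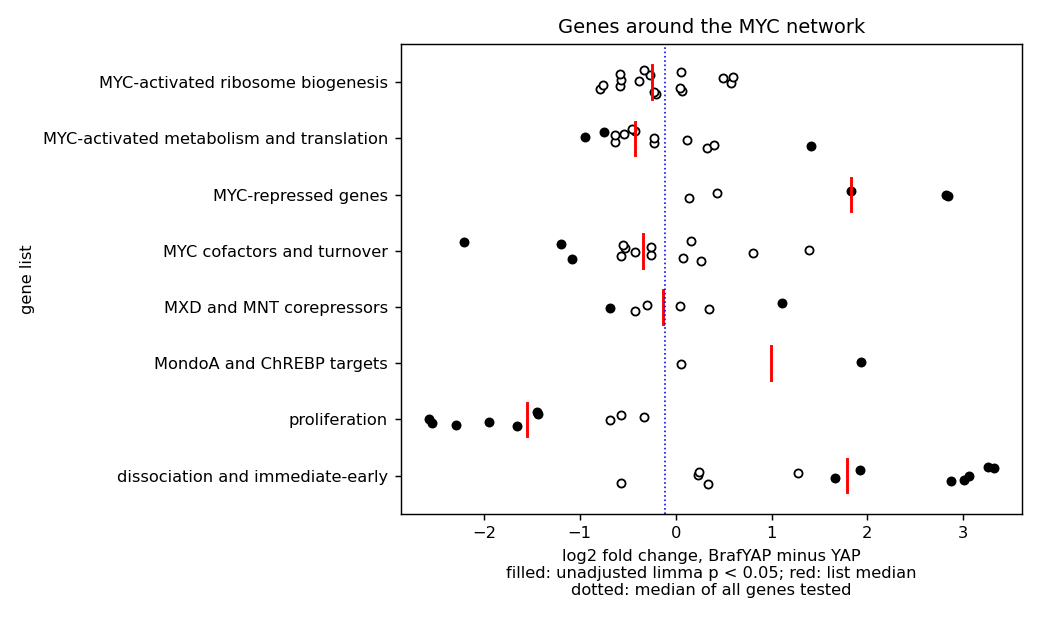
Log2 fold changes of BrafYAP against YAP for the tested genes of 8 lists around the MYC network, 1 point per gene, filled at an unadjusted limma p under 0.05, with list medians in red and the median of all genes tested as a dotted line. The medians of both lists of MYC-activated genes lie below that line, all 5 MYC-repressed genes lie above it, and the medians of the proliferation and dissociation lists lie on opposite sides.

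Markers of other cells that the sorted samples could hold were described in the same way, as log2 fold changes of the highest and lowest genes of each list. Immune markers ranged from Cd3e of T cells (-2.52, SE 1.22) and Cd74 (-2.18, SE 0.59) to Lyz2 (-1.77, SE 0.68) and Cd68 (-1.44, SE 0.42), and none was above 0. Thyroid markers ranged from Tg (-3.35, SE 2.14) and Tshr (-2.99, SE 2.33) to Foxe1 (0.46, SE 0.57) and Slc5a5 (0.88, SE 1.73). Of the 7 tested, 0 had an unadjusted limma p under 0.05, against 20.2% of all genes in either direction. Without BrafYAP replicate 6 there were 3, all lower in BrafYAP, against 20.97% of all genes in either direction. Of these 3, 1 passed the limma adjusted threshold. Epithelial markers ranged from Cdh1 (0.06, SE 0.49) and Krt18 (0.27, SE 0.52) to Krt8 (0.71, SE 0.66) and Epcam (2.10, SE 0.67). Fibroblast markers split, with Lum (2.48, SE 0.83) and Dcn (1.94, SE 0.67) higher and Col1a1 (-1.50, SE 0.48) lower at an unadjusted limma p under 0.05, and Col1a2 at -0.81 (SE 0.73). Endothelial markers ranged from Kdr (-1.80, SE 1.23) and Pecam1 (-0.08, SE 1.21) to Tek (0.44, SE 0.93) and Cdh5 (0.88, SE 1.10). Calca (-4.16, SE 2.48), Syp (-1.94, SE 1.15) and Chga (-0.36, SE 2.99) of C cells, and the globin genes Hbb-bs (-2.46, SE 1.29), Hba-a1 (-1.95, SE 1.31), Hbb-bt (-1.64, SE 0.74) and Hba-a2 (-1.34, SE 1.57), were below 0. The summed C-cell list was nevertheless highest in BrafYAP replicate 6, at 6827 scaled reads. It was at 21.3 and 19.4 in BrafYAP replicates 1 and 2 and at 62.8 to 2593 in YAP. The mean of Chga was higher in BrafYAP (2019) than in YAP (661). The part of all these markers in the members' values was not tested.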

How the data were processed

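Sorted Kate-positive cells gave total RNA for RNA-seq (SMART-Seq, 12 cycles, then 8 PCR cycles, per the labels). Per the submitters' processing notes, reads went through STAR 2.6.1d (mm10) and the E/M quantification of Partek (Ensembl 95). The authors deposited TPM, with 0.0001 added. Each column of the deposited TPM sums to 181218, less than the usual TPM total. Values times each gene's genomic span (GENCODE M21) were whole multiples of 1 step per library, within 0.05, for 71.7 to 76.0% of low values (under 200 reads), against 22.3 to 24.9% with the exonic length. Estimated reads are therefore (value - 0.0001) × span / step, for 34640 genes at one locus. Scaled reads use one step for all libraries, which keeps the authors' scaling. Libraries had 26.2 to 36.9 M estimated reads, which cover counting error only, since PCR duplicates have no molecular identifier, and strand was not stated for the counting.

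Groups came from the titles. The genotypes were compared by limma 3.58.1 (R 4.3.3; lmFit, eBayes with a trend, two-sided, no covariate) on log2(scaled reads + 1), which understates changes of low genes, for 16832 genes averaging 10 or more scaled reads, with Benjamini-Hochberg adjusted p-values called under 0.05. The study's methods describe replicates as tumors of separate mice, the labels describe YAP libraries as pools and do not number the mice, and no batch is given. In 19 further fits the scaling, pseudocount, filter, weights, block or libraries were varied. The fit was tested on simulated data. All members were named, with Mga, Mlxip and Mlxipl. Each other list gave its 2 highest and 2 lowest genes, and the 5 genes closest to Myc in profile were chosen by root mean square difference. Pax8 was named after its values were seen, and some genes are not reported here. Members and lists were chosen with earlier results of these data known, and lists were written from general knowledge. Endothelial, fibroblast, erythroid and C-cell marker lists had 0, 3, 0 and 0 genes at an unadjusted limma p under 0.05, against 20.2% of all genes tested.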

Additional observations from a re-analysis of the deposited data

How the results depend on the processing

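The number of genes past the limma adjusted threshold was 0 (3404 at an unadjusted p under 0.05). It was 18 on the deposited values, 63 per exonic length, 45 with a pseudocount of 10, 16 with no minimum mean, 62 with quantile normalization, 20 without a trend and 4655 with array weights, and 0 with a pseudocount of 0.1, a mean of at least 100, median-ratio factors, voom, protein-coding genes only and the replicate block. It ranged from 0 to 142 when each library was left out, 142 without BrafYAP replicate 6. The 2 members at an unadjusted p under 0.05, Max and Mxd1, were 4 with no minimum mean (with Mxd3 and Mlx) and 4 with array weights (with Mxd3 and Mycn), where 11.3 and 41.1% of all genes had such a p, against 20.2% in the reported fit, and 0 to 3 across the fits without one library, 0 without YAP replicate 3, against 13.6 to 22.8% of all genes. Members that did not overlap, 4 (28.7% of all genes), ranged from 4 to 7 (34.9 to 46.7%), and were 7 without BrafYAP replicate 6 (43.5%). Such counts cannot fall when a library is left out. With array weights Max (limma adjusted p = 0.00613), Mxd1 (0.00774) and Mycn (0.0146) passed the threshold. No other setting called a member. The cause was not tested. Over the planned settings the limma adjusted p ranged from 0.00613 to 0.386 for Max, 0.00774 to 0.441 for Mxd1 and 0.0146 to 0.712 for Mycn.

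Max, Mxd1, Mxd3, Mlx, Mycn and Mnt kept their sign under every setting that tested them, but on the deposited values Max was at -0.59 and Mxd1 at 0.97. For Max, Mxd1, Mxd3 and Mlx, leaving out a library could not change the sign, because the groups did not overlap. The replicate block gave 1.51 for Myc. Mxd4 changed sign on the deposited values (-0.00629), with quantile normalization (-0.0412) and with the replicate block (-0.23). Across the fits without one library it ranged from -0.23 to 0.23, Myc from -0.11 to 1.22, Mycl from -0.16 to 1.73 and Mxi1 from -0.12 to 0.54. The groups share only replicate numbers 1 and 2, whose libraries did not deviate together (r = -0.03 and 0.05 across genes), so the numbers were not taken as pairs. With the replicate block 1 member, Mycl, had an unadjusted p under 0.05. Low counts limit Mycl and Mxd3.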
